A study of Mus musculus with 26 samples.

Results

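The data described here are 7 of the 26 arrays of a study of microglia, those of the nucleus accumbens (NAc) of TLR-DKO mice. They were chosen by their titles, with 4 arrays after repeated social defeat stress (R-SDS) and 3 arrays of naive mice. The question is how defeat stress changes gene expression in accumbens microglia that lack the Toll-like receptors (TLRs) named below.

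All mice of these 7 arrays carried the genotype TLR-DKO; CX3CR1EGFP/+ on the C57BL/6 strain. The labels do not spell out TLR-DKO, which the published study uses for mice without Tlr2 and Tlr4. CX3CR1EGFP/+ mice have EGFP knocked into 1 copy of Cx3cr1, so microglia carry a green label and a single working copy of that gene, in the naive mice as well as in the stressed ones. Stressed mice met an aggressor repeatedly, and naive mice were moved between cages instead. The labels call the stressed TLR-DKO mice resilient and the stressed wild-type mice, whose arrays are set beside them, susceptible, so genotype and this label cannot be told apart in the stressed groups. Tissue was taken 1.5 h after the last session with a 1.5 mm punch, and EGFP-positive cells were sorted. Each array holds the RNA of 3 to 6 pooled mice, about 500 pg, amplified with the Ovation system and labelled with Cy3. Age and sex are not in the labels. The study describes 2 independent experiments with different mice, but does not tie arrays to experiments, so p-values measure only the spread between pools within a group. That spread was estimated over all 26 arrays of the study and not from the 7 arrays alone.

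Microglia are the resident macrophages of the brain. Through TLRs and their adaptors they sense microbial and damage-related molecules, and the signal passes through NF-kappaB to cytokine genes such as Il1a, Il1b, Il6 and Tnf. Defeat stress also acts through glucocorticoid hormones, whose receptor switches on genes such as Tsc22d3, Fkbp5 and Ddit4, and through activity-dependent early genes such as Fos, Klf4 and the Nr4a family. In resting tissue microglia express a set of homeostatic genes, among them P2ry12, Tmem119 and Cx3cr1.

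Levels are log2 processed signal minus the 75th percentile of the array, so a level of 0 is the signal of that percentile, and a difference of 1 is a doubling. The 75th percentile lay between 153.6 and 286.8 intensity units on the 7 arrays, and 49.97% to 63.28% of spots were well above background. The arrays correlated with each other at r of 0.84 to 0.93 across genes. All 12 microglia markers were well above background on all 7 arrays, and 11 of the 12 differed below 0 (median -0.18). These 12 are all among the brightest 5597 genes by mean level, of which 36.2% differed above 0, with a median of -0.09. Their summed linear level relative to the 75th percentile ran from 1337 to 1738 in naive and from 1181 to 1587 in R-SDS arrays. The summed levels of the marker lists of neurons, striatal projection neurons, cortical neurons, astrocytes, oligodendrocytes, endothelial and mural cells, perivascular macrophages, monocytes and neutrophils, T and NK cells and B cells all overlapped between the groups. Well above background on all 7 arrays were 4 of 12 neuron, 7 of 14 striatal projection neuron, 2 of 9 cortical neuron, 5 of 12 astrocyte, 9 of 12 oligodendrocyte, 4 of 13 endothelial and mural, 1 of 12 perivascular macrophage, 5 of 14 monocyte and neutrophil, 7 of 13 T and NK cell and 4 of 9 B cell markers on the array. Markers well above background on 0 of the 7 arrays included Stmn2 and Syt1 (neurons), Fezf2, Neurod6 and Slc17a7 (cortical neurons), Gja1 (astrocytes), Rgs5 and Tie1 (vessels), Cd163 (perivascular macrophages), S100a8 and S100a9 (monocytes and neutrophils), Cd3d, Cd3g and Klrb1c (T and NK cells) and Ms4a1 (B cells). Every striatal projection neuron and oligodendrocyte marker was well above background on some or all of the 7 arrays. After microglia, the largest sum was that of monocytes and neutrophils, from 277.7 to 373.8 in naive and from 289.6 to 342.7 in R-SDS arrays. The perivascular macrophage sum ran from 4.10 to 17.33 in naive and from 2.98 to 15.56 in R-SDS arrays. The part of RNA from other cells in the results was not tested. Tlr2, a targeted gene, was well above background on 0 of the 7 arrays. Tlr4 had a level of 2.41 ± 0.82 (SD, n = 3) in naive and 2.96 ± 0.14 (SD, n = 4) in R-SDS arrays, and it checks nothing, because the position of its probe against the deletion is not known. In pools of cells, fewer cells of a type and less RNA per cell cannot be told apart.

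Between stressed and naive TLR-DKO accumbens microglia, 2 genes differed at an adjusted p under 0.05, 1 in each direction. Oaz3 was higher and Npm2 lower in the R-SDS arrays. Oaz3 encodes a member of the antizyme family, which inhibits polyamine synthesis and is known mainly from male germ cells. Npm2 encodes nucleoplasmin 2, a histone chaperone known mainly from the egg. The test was limma over all 26 arrays with slide as a covariate, two-sided, with Benjamini-Hochberg adjustment over 22386 genes, and the called share was 0.00447% in each direction. Genes entered the test if 3 or more naive or 3 or more R-SDS arrays were well above background.

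Oaz3 had levels of -4.69, -3.82 and -4.37 on the naive arrays and -2.56, -1.44, -1.31 and -1.06 on the R-SDS arrays. The groups did not overlap, and the lowest R-SDS array stood more than 1 unit above the highest naive array. Oaz3 was well above background on 4 of 4 R-SDS arrays but 0 of 3 naive ones, so it passed the filter through the stressed side alone, and its naive level is only a bound. The R-SDS mean was at least 3.86-fold higher than that bound. The fitted difference was 2.75 ± 0.41 (log2, SE; limma adjusted p = 0.0246), and it was 2.70 on slide 3 and 2.91 on slide 4. Such "at least" values carry no sampling error.

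Npm2 had levels of 0.21, -1.86 and 1.06 on the naive arrays and -3.77, -3.77, -4.71 and -3.62 on the R-SDS arrays. All 4 R-SDS arrays lay below all 3 naive arrays, and the naive arrays were themselves spread over almost 3 units. All 3 naive arrays measured Npm2 well above background, as did 2 of the 4 R-SDS arrays. The fitted difference was -3.87 ± 0.49 (log2, SE; limma adjusted p = 0.00642), with -3.99 on slide 3 and -3.76 on slide 4. Neither gene kept an adjusted p under 0.05 when the spread was estimated from fewer arrays. With only the 7 arrays the limma adjusted p was 0.278 for Oaz3 and 0.475 for Npm2, and with the 13 NAc arrays it was 0.427 for both.

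Single arrays and the background correction also decided the calls. Without naive replicate 1 the limma adjusted p was 0.353 for Oaz3 and 0.149 for Npm2, and without R-SDS replicate 3 it was 0.179 and 0.0658. Oaz3 also missed the threshold without naive replicate 3 (limma adjusted p = 0.179), R-SDS replicate 2 (0.134) or R-SDS replicate 4 (0.132). With normexp background correction, which lifts dim signals, the differences shrank to 0.86 for Oaz3 (limma adjusted p = 1.00) and -1.91 for Npm2 (adjusted p = 0.303). Quantile normalization left Npm2 at -3.81 (limma adjusted p = 0.00510) and Oaz3 at 2.55 (adjusted p = 0.214). The sign of both differences was the same under every alternative run.

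**Figure D1:**
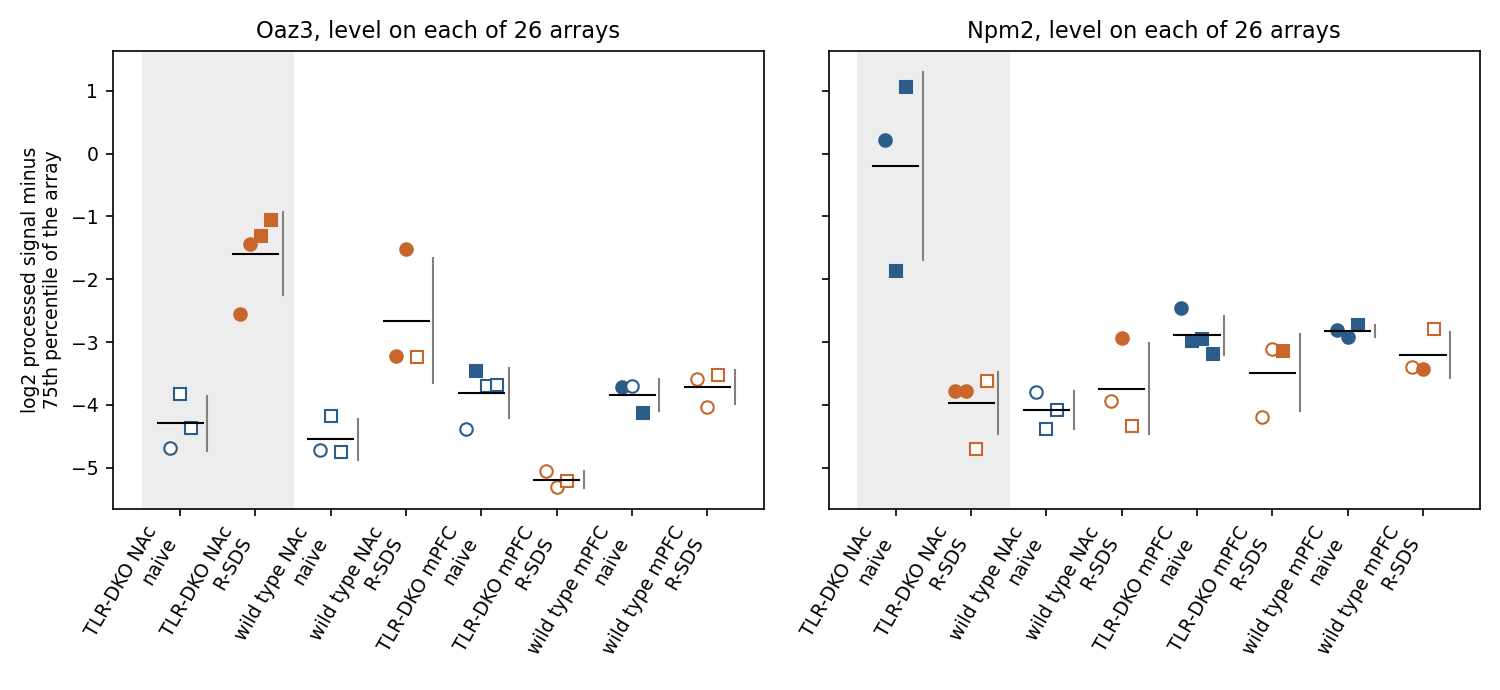
Levels of Oaz3 (left) and Npm2 (right) on each of the 26 arrays, as log2 processed signal minus the 75th percentile of the array, for 8 groups with the TLR-DKO NAc arrays shaded. Blue is naive and orange is R-SDS, circles are slides 1 and 3 and squares are slides 2 and 4, open symbols are not well above background, black lines are group means and grey bars are ± 1 SD. Oaz3 is highest in stressed TLR-DKO NAc (mean -1.59), and Npm2 stands apart in naive TLR-DKO NAc (mean -0.20).

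The other 6 groups put these levels in context. Oaz3 had a mean of -2.66 ± 0.99 (SD, n = 3) in stressed wild-type NAc and -4.54 ± 0.32 (SD, n = 3) in naive wild-type NAc. Its wild-type NAc difference was 1.98 ± 0.44 (log2, SE; limma adjusted p = 0.720), of the same sign as in TLR-DKO NAc but not past the threshold, with 0 of 3 naive and 2 of 3 R-SDS wild-type arrays well above background. In TLR-DKO mPFC, the medial prefrontal cortex, 1 of 4 naive and 0 of 3 R-SDS arrays measured Oaz3 well above background, so no difference is given there. Npm2 had group means between -4.08 (naive wild-type NAc) and -2.82 (naive wild-type mPFC) in those 6 groups, and its highest array among them stood at -2.46. All 3 naive TLR-DKO NAc arrays lay above that value, and all 4 stressed ones below it. Npm2 was well above background on 1 of the 6 wild-type NAc arrays, so no stress difference is given there, and in TLR-DKO mPFC on all 4 naive but 1 of the 3 stressed arrays, with a difference of -0.53 ± 0.51 (log2, SE).

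Whether the stress difference itself depended on genotype or region was tested with interaction terms, which use the same 7 arrays again. Between regions of TLR-DKO mice the fitted Oaz3 term passed, at 4.06 ± 0.59 for NAc minus mPFC (log2, SE; limma adjusted p = 0.0370). Of the 4 groups in that term, stressed NAc alone had Oaz3 well above background on all its arrays, so the size of the term is not a measured difference. It was the 1 gene past the threshold there (0.00447% of genes), and 991 genes (4.43%) had an unadjusted p under 0.05. The Oaz3 term was 4.11 under quantile normalization and 1.05 with normexp background correction, and under both 0 genes passed. The call was also lost without naive replicate 1 or 3, or without R-SDS replicate 2, 3 or 4. Between genotypes in NAc, limma called 0 genes, and 747 (3.34%) had an unadjusted p under 0.05. The smallest adjusted p belonged to Npm2, at -4.02 ± 0.72 (limma adjusted p = 0.349), a fitted value that rests on wild-type arrays mostly at background. Without naive replicate 2, Npm2 alone passed between genotypes (limma adjusted p = 0.0042).

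Among relatives of these genes no other call was made. The antizymes Oaz1 and Oaz2 differed by 0.12 ± 0.34 and 0.23 ± 0.43 (log2, SE), with 95% intervals from -0.60 to 0.84 and from -0.67 to 1.12. The nucleolar histone chaperone Npm1 differed by 0.24 ± 0.32 and its relative Npm3 by -0.15 ± 0.75. Odc1, the rate-limiting enzyme of polyamine synthesis and the target of antizymes, differed by 0.57 ± 0.39 (limma unadjusted p = 0.166). Of the 17 measured genes of polyamine metabolism 10 were above 0, with a median of 0.12 (with 1 array left out, -0.017 without naive replicate 1 and 0.14 without R-SDS replicate 3), and Oaz3 alone passed. Eif5a, which carries a polyamine-derived residue, stood at 0.78 ± 0.65 and the polyamine oxidase Paox at -0.44 ± 0.40. Of 20 measured histone chaperones 11 were above 0, with a median of 0.11 (with 1 array left out, -0.11 without R-SDS replicate 2 and 0.19 without R-SDS replicate 3) that was -0.01 without the slide term, and Npm2 alone passed. Asf1a, a chaperone of histones H3 and H4, had levels of -2.07, -3.31 and -5.37 on the naive arrays and 0.0071, -1.91, -1.60 and -1.82 on the R-SDS arrays. Its R-SDS arrays lay above all naive arrays, of which 2 of 3 were well above background, and the difference was 2.21 ± 0.996 (limma unadjusted p = 0.0391). Supt6, a chaperone of transcribed chromatin, differed by -1.08 ± 0.48 and the H2A.Z chaperone Anp32e by 1.14 ± 0.64 (unadjusted p = 0.0347 and 0.0930).

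Over all genes, 964 of 22386 (4.31%) had an unadjusted p under 0.05, 542 higher (2.42%) and 422 lower (1.89%) after R-SDS. A threshold of 0.05 passes 1119 of 22386 genes when none differ. Every R-SDS array lay above every naive array for 491 genes (2.19%) and below every naive array for 495 genes (2.21%). With each array centred on its median in place of its 75th percentile these became 329 above and 772 below, and the median difference of all genes moved from -0.02 to -0.12. The 95% interval of a difference reached 1.06 to either side for the median gene, so many genes were measured only to about a doubling either way.

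Direction went with brightness. In the dimmest 5597 genes by mean level 58.5% of differences were above 0, with a median of 0.12, and in the brightest 5597 genes 36.2%, with a median of -0.09. In the 2 bins of 5596 genes between these, 49.3% and 46.3% of differences were above 0. Under quantile normalization the median of the brightest bin was 0.02. The filter acted unevenly as well, since 4069 genes were well above background on at least 3 R-SDS but fewer than 3 naive arrays, and 339 the other way round. Genes in the first set passed through the R-SDS group alone, which favours genes that are high there. The rule asks for all 3 naive arrays but only 3 of the 4 R-SDS arrays, so these counts are not on equal terms. Of all genes, 47.6% differed above 0.

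The 2 slides gave nearly unrelated differences. Slide 3 holds naive replicate 1 and R-SDS replicates 1 and 2, and slide 4 the other 4 arrays. The 2 slides were scanned on different days, so slide and scan day cannot be told apart. Across the 22386 genes the differences on the 2 slides had r = 0.058, and the sign was the same for 51.7% of genes. Among genes beyond 1 in absolute value on both slides 1193 had the same sign and 1004 opposite signs. For the 17045 genes well above background on all 7 arrays r was 0.012. Genes are not independent replicates, and these correlations describe the arrays. The stress differences across genes had r of 0.098 with those of wild-type NAc, measured on the same slides with other arrays, and of 0.090 with those of TLR-DKO mPFC, on other slides.

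**Figure D2:**
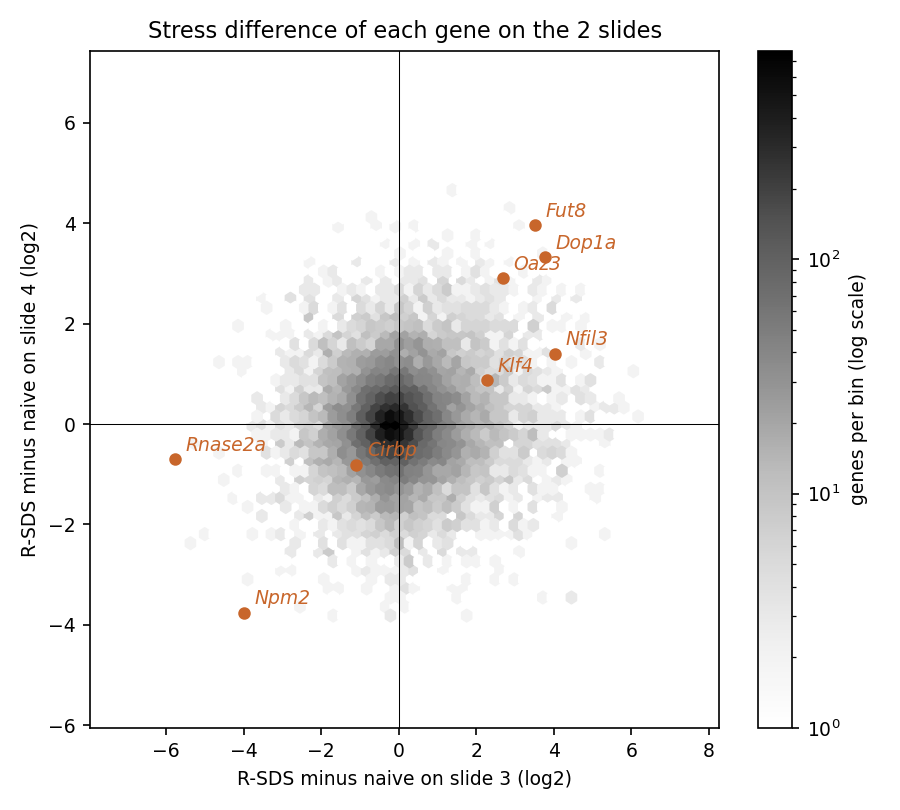
Stress difference of each of 22386 genes (R-SDS minus naive, log2) on slide 3, horizontal, against slide 4, vertical, with grey showing genes per bin on a log scale and 8 named genes in orange. The cloud shows almost no slope (r = 0.058). Oaz3 (2.70 and 2.91) and Npm2 (-3.99 and -3.76) lie far out, but both were picked by their p-values on these same arrays. Their same sign on both slides is therefore no separate check, and the naive Oaz3 level is only a bound.

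Beyond Oaz3, the RefSeq-named genes of 1 sign on both slides with the smallest p-values on the higher side came from a range of functions. None passed after adjustment (limma adjusted p of 0.591 or more). All of them but Scfd1 were well above background on fewer than 3 naive arrays. Those genes passed the filter through the R-SDS group alone, which favours genes that are high there, and their naive levels lie partly at background. Fut8, the enzyme of core fucosylation, had levels of -4.81, -3.40 and -5.30 on the naive arrays and -1.77, -0.82, -0.29 and -0.50 on the R-SDS arrays. The groups did not overlap, but 1 of 3 naive arrays was well above background, so the naive level is mostly background. The fitted difference was 3.74 ± 0.79 (log2, SE; limma unadjusted p = 0.000156). Fut11, another fucosyltransferase, stood at 3.34 ± 0.79, also with 1 of 3 naive arrays well above background. Scfd1, which acts in transport between endoplasmic reticulum and Golgi, had levels of -3.05, -1.25 and -2.46 on the naive arrays and -0.67, -0.37, 0.23 and -0.12 on the R-SDS arrays. Its R-SDS arrays were all higher, with a difference of 2.12 ± 0.47 (unadjusted p = 0.000241). Dop1a, a protein of endosome and Golgi traffic, was well above background on 4 of 4 R-SDS arrays but 0 of 3 naive ones and stood at least 2.86-fold higher with stress.

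The GTPase Gpn2 stood at least 8.99-fold higher with stress, the band 4.1 family gene Epb41l4b at least 2.21-fold and the membrane glycoprotein gene Tpbg at least 3.38-fold, each on 4 of 4 R-SDS arrays well above background but 0 of 3 naive ones. Prrg1, a membrane protein with a Gla domain, was well above background on 3 of 4 R-SDS arrays but 0 of 3 naive ones and stood at least 3.28-fold higher. It had levels of -5.36, -5.96 and -5.04 on the naive arrays and 0.39, -2.19, 0.072 and -5.57 on the R-SDS arrays. R-SDS replicate 4 lay among the naive arrays, and without it limma's adjusted p was 0.0220, past the threshold. Without the filter, another Prrg1 probe stood for the gene, one that does not pass the filter, and it differed in the opposite direction. Bdp1, a subunit of the RNA polymerase III factor TFIIIB, stood at 2.48 ± 0.64, with 2 of 3 naive arrays well above background. Its groups overlapped, and the naive arrays ran from -5.15 to 0.69. Kctd21 and Klhl32, members of the BTB-domain families that bring substrates to cullin 3, stood at 2.25 ± 0.56 and 1.81 ± 0.51, each with 1 of 3 naive arrays well above background.

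On the lower side the ranking was again among RefSeq-named genes of 1 sign on both slides. There the smallest p-values after Npm2 belonged to Ccdc90b, Apex2, Ear10, Tmem63c, Oxct2a, Patz1, Zfp780b, Rnase2a, Olfr609, Hypk and Norad. None of these 11 passed after adjustment. Ccdc90b, a mitochondrial coiled-coil protein, had levels of 2.06, 1.04 and 1.94 on the naive arrays and -0.45, 0.56, -0.27 and 0.071 on the R-SDS arrays. All R-SDS arrays lay below all naive arrays, with a difference of -1.78 ± 0.38 (limma unadjusted p = 0.000158). Apex2, an endonuclease of DNA repair, had levels of 0.91, 0.82 and 0.65 on the naive arrays and 0.093, -0.33, -1.08 and -1.02 on the R-SDS arrays. Its naive arrays were close together and all above the R-SDS arrays, with a difference of -1.45 ± 0.32 (unadjusted p = 0.000262). Norad, a long noncoding RNA induced by DNA damage, had levels of 3.25, 3.50 and 4.06 on the naive arrays and 2.30, 1.72, 1.27 and 2.15 on the R-SDS arrays. The groups were separated by almost 1 unit, and the difference was -1.69 ± 0.50. In wild-type NAc the Norad difference was 0.88 ± 0.54 (interaction unadjusted p = 0.00225, limma adjusted p = 1.00). Hypk, a partner of an N-terminal acetyltransferase, stood at -1.60 ± 0.46, and its groups did not overlap either.

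Some of the others varied widely among the naive arrays. Rnase2a and Ear10, of a ribonuclease family with near-identical copies that may share probes, differed by -2.67 ± 0.72 and -1.97 ± 0.45. Rnase2a was 2.30 on naive replicate 1 but -3.29 on naive replicate 2, inside the R-SDS range, and without naive replicate 2 its difference was -3.75 (limma adjusted p = 0.0355), past the threshold. Patz1, a zinc finger transcription factor, was -4.12 ± 1.05, with 2.96 on naive replicate 1 and -0.38 and -0.16 on the other naive arrays. Zfp780b, another zinc finger gene, stood at -2.004 ± 0.52, the osmosensitive channel gene Tmem63c at -1.75 ± 0.43, the ketone body enzyme gene Oxct2a at -1.40 ± 0.35 and the olfactory receptor gene Olfr609 at -1.55 ± 0.43. Patz1, Zfp780b and Oxct2a were each well above background on 2 of 4 R-SDS arrays.

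**Figure D3:**
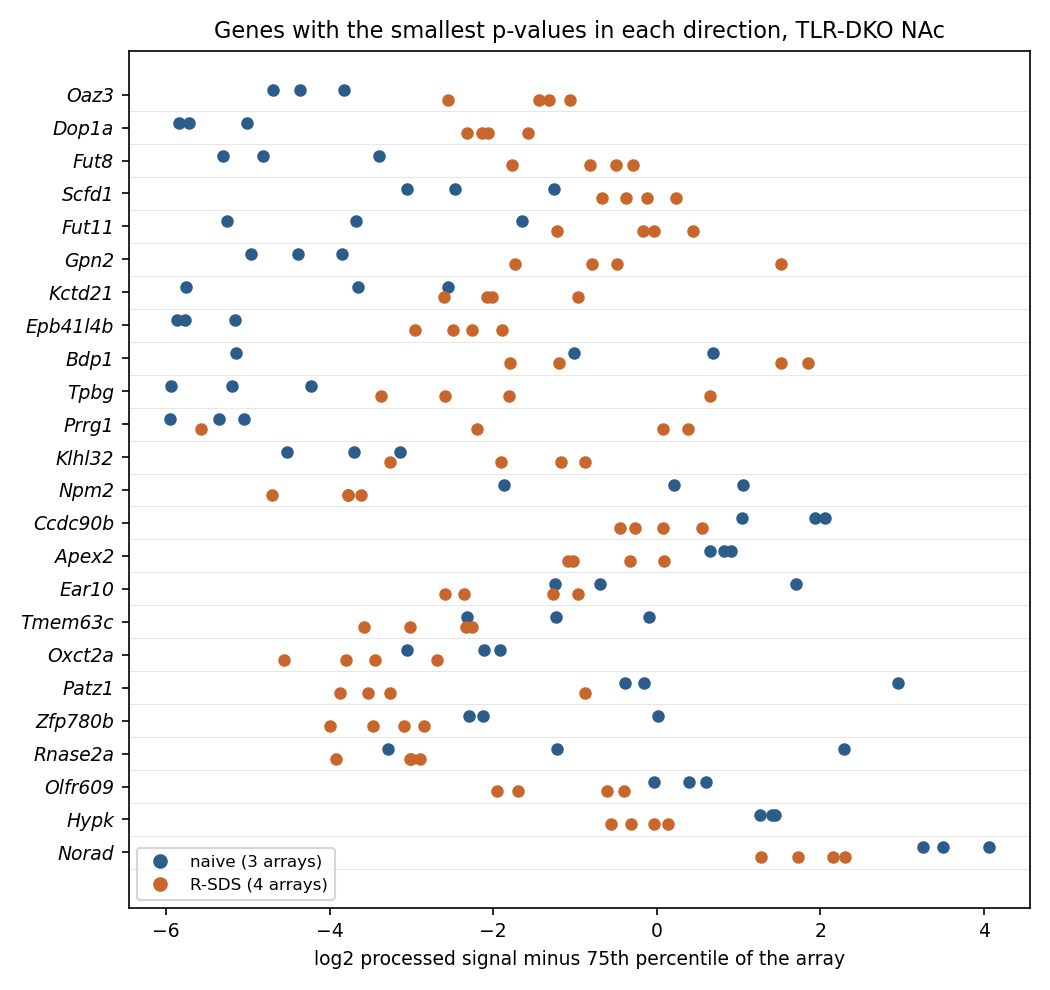
Levels on the 3 naive (blue) and 4 R-SDS (orange) TLR-DKO NAc arrays of the 12 genes with the smallest p-values in each direction, as log2 processed signal minus the 75th percentile of the array. The upper 12 genes stand higher after R-SDS, mostly from naive levels below -3, and the lower 12 stand lower. Most of the upper 12 passed the filter through the R-SDS arrays alone. Oaz3 and Npm2 passed the adjusted threshold.

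Among RefSeq-named genes well above background on all 7 arrays, where a level is measured on both sides, the largest differences at an unadjusted p under 0.05 were again not called. Higher were Inppl1, an inositol phosphatase also called SHIP2 (3.19 ± 1.21), the mitochondrial ribosomal protein gene Mrpl51 (3.14 ± 0.98), Utp4 of ribosome biogenesis (3.01 ± 1.01), the Polycomb-related gene Sfmbt1 (3.01 ± 0.88), Paxbp1 (2.85 ± 1.27) and Bmpr1a, a receptor of bone morphogenetic proteins (2.77 ± 1.02). Mrpl51 had levels of -3.02, -0.33 and -2.21 on the naive arrays and 1.12, 0.87, 1.74 and 0.85 on the R-SDS arrays, with no overlap between the groups. Lower were the death effector gene Dedd (-2.91 ± 0.997), the telomerase inhibitor gene Pinx1 (-2.82 ± 1.13), Cmas, which activates sialic acid (-2.73 ± 1.07), the corepressor gene Cbfa2t3 (-2.71 ± 1.28), Bcl7b, a subunit of SWI/SNF complexes (-2.59 ± 0.96), and the ganglioside enzyme gene B3galt4 (-2.58 ± 0.96). Dedd had levels of 2.05, 0.01 and 1.86 on the naive arrays and -2.41, -1.66, -1.71 and -0.61 on the R-SDS arrays, again without overlap, and differed by 1.91 ± 1.09 in wild-type NAc (interaction limma adjusted p = 1.00).

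The gene lists were read by their counts and medians beside those of all genes, of which 47.6% were above 0 with a median of -0.02. Apart from Oaz3 and Npm2, 0 members of the 21 lists passed limma's adjusted threshold. The 2 values in parentheses after a list median are its lowest and highest with 1 array left out. Of the Toll-like receptors and their adaptors, 12 of 30 measured genes were above 0, with a median of -0.083 (-0.12 without R-SDS replicate 4 and 0.028 without naive replicate 2) that was 0.02 within slide 4. Tollip, an inhibitor of TLR and interleukin 1 receptor signalling, had levels of 1.43, 2.34 and 2.52 on the naive arrays and 2.79, 2.91, 4.14 and 3.76 on the R-SDS arrays. All R-SDS arrays exceeded all naive arrays, with a difference of 1.37 ± 0.44 (limma unadjusted p = 0.00561) against 0.54 ± 0.48 in wild-type NAc. Irf5, a transcription factor downstream of TLRs, stood at 0.85 ± 0.39 (unadjusted p = 0.0401), the TLR-like receptor gene Cd180 at -0.88 ± 0.54 and Sigirr, an inhibitory receptor of the family, at 0.74 ± 0.51. Tlr4 differed by 0.55 ± 0.51.

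NF-kappaB subunits, targets and feedback genes had 16 of 23 members above 0, with a median of 0.30 (0.19 without R-SDS replicate 4 and 0.49 without R-SDS replicate 2) here and 0.51 in wild-type NAc. Rel, an NF-kappaB subunit, stood at 1.60 ± 0.61, and Zc3h12a, an RNase that degrades cytokine mRNAs, at 1.88 ± 0.89 (limma unadjusted p = 0.0164 and 0.0487). R-SDS replicate 2 was low for both, at -1.83 and -1.52. Nfkbiz, an atypical inhibitor protein that coactivates cytokine genes, had levels of 0.56, 0.88 and -0.85 on the naive arrays and 1.57, 1.53, 2.64 and 1.16 on the R-SDS arrays. Its groups did not overlap, and the difference was 1.49 ± 0.69. Traf1, a signalling adaptor, stood at -1.39 ± 0.62.

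The cytokine and chemokine list had a median of 0.61 (0.40 without R-SDS replicate 4 and 0.96 without R-SDS replicate 2), with 16 of 21 members above 0, beside 0.74 and 15 of 21 in wild-type NAc, where 52.9% of all genes were above 0. Il6, a pleiotropic cytokine, had levels of -4.62, -0.34 and -5.18 on the naive arrays and 0.12, -0.16, 0.72 and -1.21 on the R-SDS arrays. Naive replicate 2, the 1 naive array of 3 well above background, lay within the R-SDS range, so the naive level is mostly background. The fitted difference was 3.45 ± 1.23 (limma unadjusted p = 0.0114) against 3.08 ± 1.34 in wild-type NAc. Il1b, which encodes interleukin 1 beta, had levels of 0.36, 1.88 and 2.14 on the naive arrays and 2.90, -0.69, 2.73 and 4.00 on the R-SDS arrays. The groups overlapped, with R-SDS replicate 2 the lowest of all 7 arrays, and the difference was 1.003 ± 0.92. Il1a stood at 0.61 ± 0.68 and Tnf at 0.62 ± 0.82, with R-SDS replicate 2 lowest for both. Cxcl16, a chemokine ligand of CXCR6, stood at 1.28 ± 0.56 and Ccl5, a chemokine for T cells, at 1.15 ± 0.59. Going the other way, the chemokine genes Ccl9 and Ccl6 stood at -0.80 ± 0.35 and -1.03 ± 0.53, with all R-SDS arrays below all naive arrays for each. In wild-type NAc these 2 genes stood at -0.55 and -0.51.

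Of the type I interferon response genes 13 of 22 were above 0, with a median of 0.16 (0.089 without naive replicate 3 and 0.30 without naive replicate 1) that was -0.01 over members well above background on all 7 arrays. Cmpk2, an interferon-induced mitochondrial kinase, stood at least 2.52-fold higher, with 3 of 4 R-SDS arrays well above background but 0 of 3 naive ones. The antiviral gene Ifit2 stood at least 1.38-fold higher with the same counts of arrays, Isg15, a ubiquitin-like antiviral modifier, at 1.91 ± 1.04 and Ifi35 at -1.33 ± 0.80. The groups overlapped for Cmpk2 and Ifit2. R-SDS replicate 2 for Cmpk2 (-5.98) and R-SDS replicate 3 for Ifit2 (-5.57) were the lowest of the 7 arrays. Isg15 was 1.80 on naive replicate 1 but -2.62 and -2.41 on the other naive arrays, so it differed by -0.66 on slide 3 and 3.60 on slide 4.

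In the list of immediate early and heat shock genes, whose transcripts appear within minutes to hours, 23 of 33 members were above 0, with a median of 0.33 (0.17 without naive replicate 2 and 0.38 without R-SDS replicate 2). The same 33 genes had 27 above 0 and a median of 0.76 in wild-type NAc, and the difference between the 2 medians was not tested. All R-SDS arrays lay above all naive arrays for 3 of the 33 and below them for 0, beside 2.19% and 2.21% of all genes. Klf4, a zinc finger transcription factor, had levels of -0.58, 2.23 and 1.82 on the naive arrays and 1.57, 1.84, 3.54 and 2.25 on the R-SDS arrays. Naive replicate 1 was far below the other naive arrays, which fell within the R-SDS range, and the difference was 1.47 ± 0.47 (limma unadjusted p = 0.00589), 2.28 on slide 3 and 0.87 on slide 4. In wild-type NAc Klf4 stood at 2.04 ± 0.51 (interaction unadjusted p = 0.420). R-SDS replicate 2 did not stand apart from the naive arrays for the nuclear receptor gene Nr4a3, which stood at least 3.51-fold higher with stress, on 3 of 4 R-SDS arrays well above background but 0 of 3 naive ones, and the AP-1 gene Fosl1 at least 1.75-fold, on the same numbers of arrays. Hsph1, a heat shock protein of the HSP110 family, had levels of 0.34, 2.84 and 2.02 on the naive arrays and 3.17, 2.99, 3.64 and 3.02 on the R-SDS arrays. Its groups did not overlap, although the difference of 1.61 ± 0.999 had an unadjusted p of 0.124.

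Fos and Nr4a1, early genes that are widely used as markers of activation, had smaller differences than Klf4. Fos had levels of 4.09, 4.49 and 3.83 on the naive arrays and 4.08, 4.07, 3.77 and 3.65 on the R-SDS arrays. The groups overlapped, and the difference was -0.26 ± 0.56 with a 95% interval from -1.44 to 0.93, beside 1.37 ± 0.62 in wild-type NAc (interaction -1.63 ± 0.82, limma unadjusted p = 0.0624, adjusted p = 1.00). Nr4a1 stood at 0.33 ± 0.58 here and at 1.24 in wild-type NAc (interaction unadjusted p = 0.2999).

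Glucocorticoid receptor targets had 13 of 23 members above 0, with a median of 0.24 (0.078 without R-SDS replicate 4 and 0.36 without naive replicate 1), beside 17 of 23 and 0.51 in wild-type NAc. Ddit4, an inhibitor of mTORC1, had levels of 5.78, 5.54 and 6.07 on the naive arrays and 7.17, 7.46, 7.52 and 5.71 on the R-SDS arrays. On R-SDS replicates 1 to 3 it stood above all naive arrays, and on R-SDS replicate 4 within their range. The difference was 1.103 ± 0.59 (limma unadjusted p = 0.0755), against 2.32 ± 0.64 in wild-type NAc (interaction unadjusted p = 0.172). Tsc22d3, the gene of GILZ, an anti-inflammatory protein, had levels of 5.20, 4.89 and 4.90 on the naive arrays and 5.72, 5.99, 6.09 and 4.72 on the R-SDS arrays. R-SDS replicates 1 to 3 again stood above all naive arrays, while R-SDS replicate 4 was the lowest of the 7 arrays. The result was a difference of 0.59 ± 0.37 against 1.69 ± 0.41 in wild-type NAc (interaction -1.09 ± 0.54, unadjusted p = 0.0595, adjusted p = 1.00). Fkbp5, a co-chaperone of the receptor, stood at 0.38 ± 0.39 against 1.02. Zbtb16, a zinc finger gene, stood at 1.33 ± 0.70, Tgm2, a transglutaminase, at -1.01 ± 0.54 and Rgs2, a regulator of G protein signalling, at -0.60 ± 0.24 (unadjusted p = 0.0198).

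Clock and cold-inducible genes had 7 of 16 members above 0 and a median of -0.18 (-0.39 without naive replicate 1 and -0.038 without naive replicate 2) that was 0.06 within slide 3. In all, 1 of the 16 lay higher and 2 lower without overlap, beside 2.19% and 2.21% of all genes. Nfil3, a repressor of D-box genes, had levels of -2.61, 0.94 and -0.37 on the naive arrays and 1.70, 1.13, 1.58 and 1.79 on the R-SDS arrays and a difference of 2.55 ± 0.73 (limma unadjusted p = 0.00251), against 1.16 ± 0.79 in wild-type NAc. Dbp, the D-box activator that Nfil3 opposes, had levels of 1.58, 2.05 and 1.24 on the naive arrays and 1.13, 1.02, 1.02 and 0.35 on the R-SDS arrays and a difference of -0.83 ± 0.37 (unadjusted p = 0.0375). Cirbp, a cold-inducible RNA-binding protein, had levels of 2.16, 2.46 and 2.17 on the naive arrays and 1.07, 1.07, 1.57 and 1.44 on the R-SDS arrays. Its difference was -0.996 ± 0.36 here (unadjusted p = 0.0121, adjusted p = 1.00), -1.98 ± 0.39 in wild-type NAc (adjusted p = 0.561) and -2.19 ± 0.37 in TLR-DKO mPFC (adjusted p = 0.154), by limma. In wild-type mPFC Cirbp stood at 0.33. Cry2, a clock repressor, stood at -2.31 ± 1.54.

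Genes of the integrated stress and unfolded protein responses had 21 of 27 members above 0, with a median of 0.24 (0.18 without R-SDS replicate 1 and 0.28 without R-SDS replicate 4) that was 0.43 on slide 3 and 0.15 on slide 4. In wild-type NAc 15 of 27 were above 0, with a median of 0.037. Psat1, an enzyme of serine synthesis, stood at 1.82 ± 0.76, the stress sensor gene Atf6 at 1.36 ± 0.59 and Ddit3, which encodes the transcription factor CHOP, at 1.89 ± 0.83 (limma unadjusted p = 0.0271, 0.0316 and 0.0354). Ddit3 was well above background on 2 of 3 naive arrays, and it stood at -1.43 in wild-type NAc (interaction unadjusted p = 0.0134, adjusted p = 1.00). Herpud1, a component of protein degradation at the endoplasmic reticulum, had levels of 2.57, 3.13 and 3.15 on the naive arrays and 3.32, 3.15, 3.91 and 3.74 on the R-SDS arrays. Its R-SDS arrays lay just above the naive ones, with a difference of 0.66 ± 0.38. Targets of p53 and apoptosis genes had 15 of 26 above 0 and a median of 0.20 (-0.014 without naive replicate 2 and 0.26 without R-SDS replicate 3). Trp53inp1 stood at 1.53 ± 0.71, the p53 ubiquitin ligase gene Mdm2 at 1.22 ± 0.64, Sesn2, a stress-induced inhibitor of mTORC1, at 0.95 ± 0.57 and Casp8, an initiator caspase, at -0.74 ± 0.36.

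**Figure D4:**
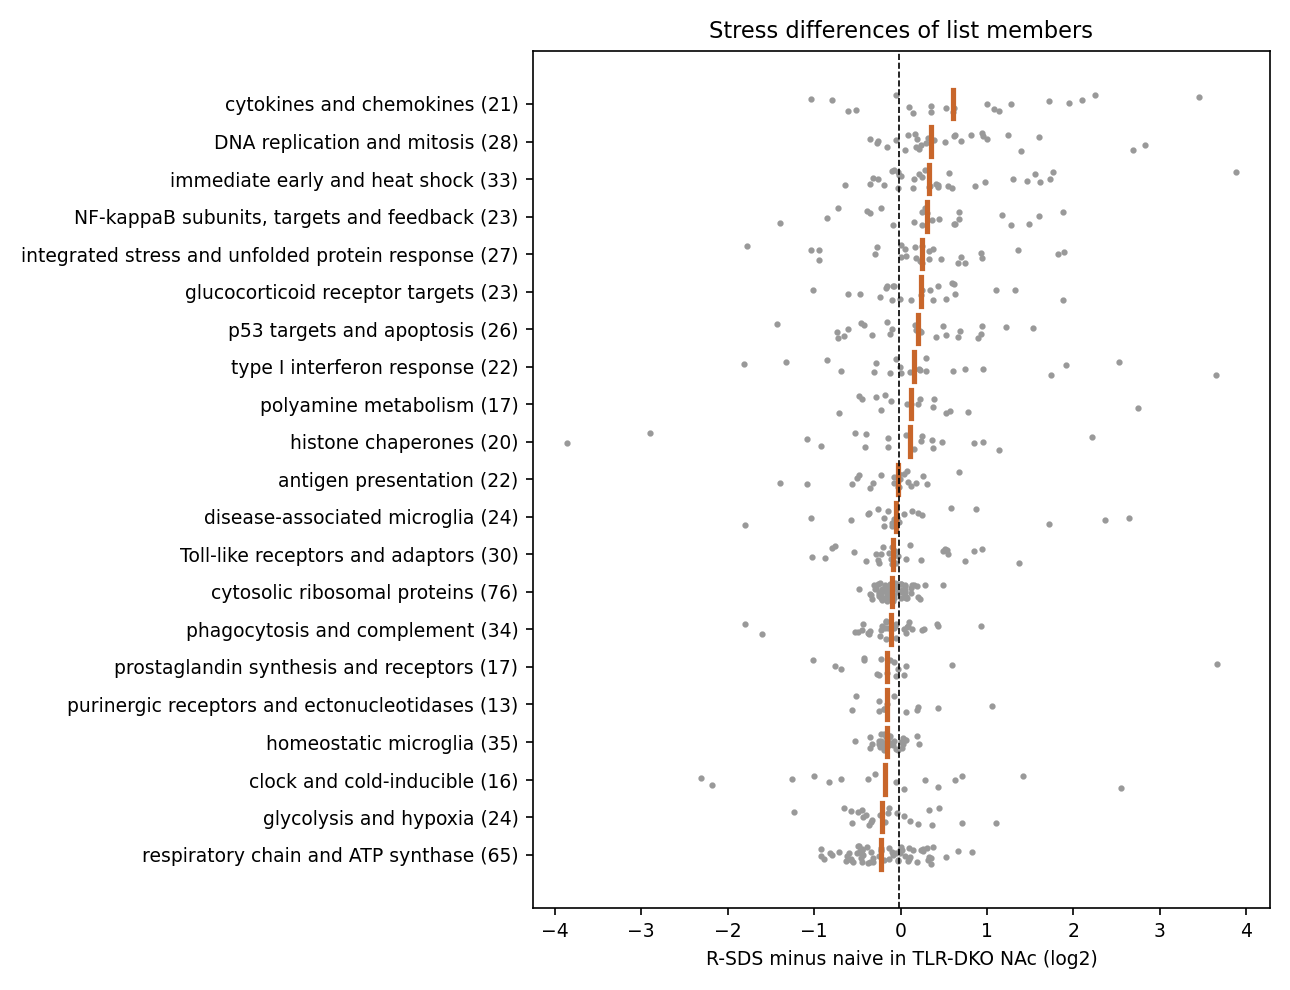
Stress differences (R-SDS minus naive in TLR-DKO NAc, log2) of the measured members of 21 gene lists, 1 grey point per gene with a small random vertical shift, the list median in orange, the number of members in parentheses and the median of all genes (-0.02) as a dashed line. Medians run from -0.23 for the respiratory chain to 0.61 for cytokines and chemokines, and homeostatic and ribosomal genes are the most tightly grouped.

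All 35 homeostatic microglia genes are among the brightest 5597 genes. Of the 35, 27 were below 0, with a median of -0.16 (-0.19 without R-SDS replicate 3 and -0.12 without R-SDS replicate 4) beside -0.09 for those 5597 genes, and the list median kept its sign under every alternative run. None of the 35 had an unadjusted p under 0.05 in limma. Cx3cr1 had levels of 8.32, 8.73 and 8.81 on the naive arrays and 8.18, 8.33, 8.62 and 8.38 on the R-SDS arrays. On this probe, the brightest of the gene, the groups overlapped, and the difference was -0.19 ± 0.30 with a 95% interval from -0.82 to 0.44. The other probes of Cx3cr1 disagreed, and they were not tested. A dimmer one differed by -0.65, with all R-SDS arrays below all naive arrays, and a further one by 0.016. P2ry12, the ADP receptor of microglia, and Tmem119, a microglial membrane protein, differed by -0.19 ± 0.27 and -0.17 ± 0.25, with intervals from -0.76 to 0.38 and from -0.69 to 0.35. The fructose transporter gene Slc2a5 stood at -0.52 ± 0.28, the lipid receptor gene Trem2 at -0.35 ± 0.29, Siglech at -0.36 ± 0.31 and the lysophosphatidylserine receptor gene Gpr34 at -0.33 ± 0.30. P2ry13, another ADP receptor, was 7.19, 7.04 and 7.02 on the naive arrays and 6.83, 6.86, 6.84 and 6.81 on the R-SDS arrays. All R-SDS arrays lay below all naive arrays, and the difference was -0.25 ± 0.24 (limma unadjusted p = 0.320).

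Disease-associated microglia genes, a set induced around damage, had 9 of 24 above 0 and a median of -0.057 (-0.10 without R-SDS replicate 1 and -0.017 without R-SDS replicate 4) that was 0.01 under quantile normalization. The 2 members with all R-SDS arrays above all naive arrays (2.19% of all genes) were Fabp5 and Cst7, and 2 others had all R-SDS arrays below. Fabp5, a fatty acid-binding protein, had levels of -1.18, -1.36 and -1.07 on the naive arrays and 1.55, -0.69, 1.25 and 1.89 on the R-SDS arrays. The groups did not overlap, and the difference was 2.37 ± 0.81 (limma unadjusted p = 0.00913), against 2.24 ± 0.89 in wild-type NAc. Cst7, a cathepsin inhibitor, stood at least 3.24-fold higher with stress, on 4 of 4 R-SDS arrays well above background but 0 of 3 naive ones. Lilrb4a, an inhibitory receptor, stood at 0.88 ± 0.63, with 2 of 3 naive arrays well above background.

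Phagocytosis and complement genes had 11 of 34 above 0 and a median of -0.11 (-0.16 without R-SDS replicate 1 and -0.059 without naive replicate 1), with the scavenger receptor gene Cd36 at -1.61 ± 0.83, the complement receptor gene C5ar1 at 0.93 ± 0.53 and the inhibitory Fc receptor gene Fcgr2b at -0.36 ± 0.30. Antigen presentation genes had 8 of 22 above 0 and a median of -0.029 (-0.20 without naive replicate 2 and -0.021 without R-SDS replicate 2), or 0.02 under quantile normalization. Cd74, the class II invariant chain, stood at -1.40 ± 1.05, H2-Eb1 at -1.08 ± 1.04, the immunoproteasome gene Psmb9 at -0.56 ± 0.39 and the chaperone gene Canx at -0.35 ± 0.23. Purinergic receptors and ectonucleotidases had 5 of 13 above 0 and a median of -0.15 (-0.18 without naive replicate 1 and 0.036 without naive replicate 2), or 0.07 within slide 3. Enpp1, an ectonucleotidase, stood at 1.06 ± 0.66, the adenosine receptor gene Adora2b at 0.44 ± 0.49 and the ATP receptor gene P2rx1 at -0.57 ± 0.66. Enpp1 and Adora2b were each well above background on 2 of 3 naive arrays. Prostaglandin genes had 4 of 17 above 0 and a median of -0.15 (-0.24 without R-SDS replicate 3 and -0.10 without R-SDS replicate 4). Hpgd, which breaks prostaglandins down, stood at -0.68 ± 0.28 (limma unadjusted p = 0.0259), the prostaglandin E2 receptor gene Ptger4 at least 2.45-fold higher, on 3 of 4 R-SDS arrays well above background but 0 of 3 naive ones, Hpgds, a prostaglandin D synthase, at -0.43 ± 0.49 and the prostaglandin E synthase gene Ptges2 at -1.01 ± 0.90. For Ptger4, R-SDS replicate 4 lay within the naive range at -5.88.

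DNA replication and mitosis genes had 23 of 28 measured members above 0 and a median of 0.36 (0.19 without R-SDS replicate 4 and 0.54 without R-SDS replicate 3), beside 14 of 28 and -0.026 in wild-type NAc. The list held 48 symbols, so 20 did not pass the filter on dim probes, and 3 of the 28 were among the brightest 5597 genes. Of the 28, 19 were well above background on all 7 arrays, and without the filter the list median was 0.20. The filter used the TLR-DKO NAc arrays and not the wild-type ones, so the counts of the genotypes are not on equal terms. Rrm1, a subunit of ribonucleotide reductase, stood at 2.69 ± 1.12 (limma unadjusted p = 0.0275), with 2 of 3 naive arrays well above background. The proliferation marker Mki67 stood at 1.39 ± 0.71 and the replication licensing gene Cdt1, well above background on 1 of 3 naive arrays, at 2.83 ± 1.69. Cenpe, a kinetochore motor, was well above background on 3 of 4 R-SDS arrays but 0 of 3 naive ones and was at least 1.31-fold higher. Its level on R-SDS replicate 4, -5.13, lay within the naive range. Mki67 had levels of -2.40, -0.51 and -2.17 on the naive arrays and -0.44, -1.85, 0.65 and -0.12 on the R-SDS arrays. The groups overlapped through R-SDS replicate 2.

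Of 65 respiratory chain and ATP synthase genes 44 were below 0, with a median of -0.23 (-0.31 without naive replicate 2 and -0.15 without R-SDS replicate 3), and all R-SDS arrays lay below all naive arrays for 5 of the 65 and above them for 1, and 45 of the 65 are among the brightest 5597 genes, where 2.82% lie all below and 0.96% all above. Uqcrfs1, the Rieske protein of complex III, had levels of 2.55, 2.49 and 2.24 on the naive arrays and 1.66, 2.20, 1.93 and 1.64 on the R-SDS arrays, with no overlap and a difference of -0.57 ± 0.33. The complex I genes Ndufb3 and Ndufv2 stood at -0.45 ± 0.26 and -0.60 ± 0.39 and Cox6b1 of complex IV at -0.92 ± 0.59. In wild-type NAc the list median was -0.053. Glycolysis and hypoxia genes had 8 of 24 above 0 and a median of -0.21 (-0.36 without R-SDS replicate 1 and -0.057 without R-SDS replicate 3), with the enolase gene Eno1 at -0.45 ± 0.29, the hypoxia factor gene Hif1a at 0.44 ± 0.35 and the oxygen sensor gene Egln3 at -0.57 ± 0.45. Cytosolic ribosomal protein genes, whose processed pseudogenes may share probes, had 23 of 76 above 0 and a median of -0.095 (-0.17 without R-SDS replicate 3 and 0.04 without R-SDS replicate 4), or 0.01 under quantile normalization. Since 75 of the 76 are among the brightest 5597 genes, whose median is -0.09 with 36.2% above 0, this is near the background of bright genes. The same 76 genes had 72 above 0 and a median of 0.27 in wild-type NAc, and the brightest 5597 genes had a median of 0.08 there. Among them Rps19 stood at 0.49 ± 0.26, Rpl18 at -0.48 ± 0.36, Rpl7a at -0.35 ± 0.31 and Rpl27 at -0.30 ± 0.23.

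**Figure D5:**
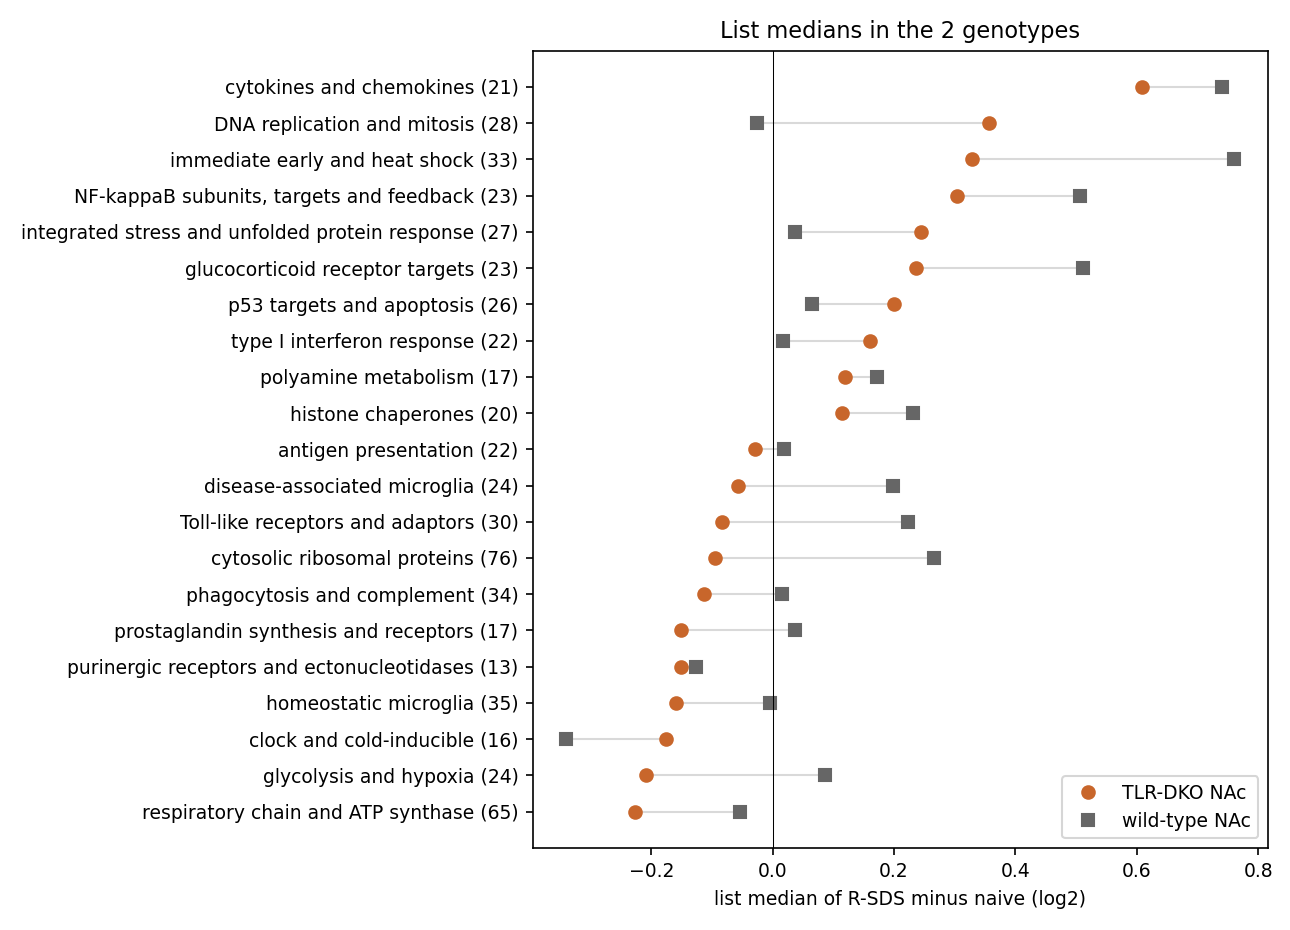
Medians of the stress difference (R-SDS minus naive, log2) over the measured members of 21 gene lists, in TLR-DKO NAc (orange circles) and wild-type NAc (grey squares), with a thin line joining the 2 values of a list. Immediate early genes have medians of 0.33 and 0.76, glucocorticoid targets 0.24 and 0.51 and ribosomal genes -0.10 and 0.27, and differences between the genotypes' medians were not tested.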

How the data were processed

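RNA of sorted microglia was hybridised to 1-colour Agilent mouse arrays. Per the file headers, the authors' scanner files hold spot intensity read with Agilent Feature Extraction 11.0.1.1, and the background-subtracted processed signal was used. The deposited series table holds log2 values of the same arrays. Its column medians on the 7 arrays ran from -2.90 to -2.59. It matched the scanner values at r = 1.0 on every array, so scale and direction were settled and its values served as an alternative. Control spots were left out. Each array's 75th percentile was subtracted on the log2 scale. Probes that 3 or more arrays of either group measured well above background were kept, with 1 probe per gene. Names came from the array design, and 27980 of 29744 RefSeq accessions matched a RefSeq table. No coordinates are given, since its assembly differs from that of the array.

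Differences were fitted with limma 3.58.1 (R 4.3.3) over all 26 arrays, with 8 group means and slide as a covariate, and adjusted by Benjamini-Hochberg over 22386 genes. All arrays of a slide were scanned on the same day. The script was tested on simulated data. The number of arrays, 3 against 4, limits the precision. Named genes are those past the threshold, the 12 smallest p-values in each direction with 1 sign on both slides, the 6 largest differences in each direction among genes well above background on all 7 arrays, the 4 smallest p-values of each list, genes of the interaction terms, and genes named in advance. The sets of 12 and of 6 leave out probes without a RefSeq name and clone-type symbols. The members and lists were chosen with earlier results of these data known. The "at least" folds set the bright group's mean against the higher of the dim probe's own signal and the lowest signal well above background on each array. Alternatives changed the background correction, scaling, filter, probe rule, slide term, arrays used and replicates. The normexp correction on median spot signals and the filter on mean level were chosen after seeing the data.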

Additional observations from a re-analysis of the deposited data

Results flagged for a closer look

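Each of 131 named genes was checked for an array that stands apart among the 4 R-SDS arrays, by its gap to the nearest other array over the range of the group, against Dixon's 95% critical value. Chance alone marks about 1 group in 20, and 7 of the 131 genes had such an array. For Npm2, R-SDS replicate 3 was lowest at -4.71, and for the ribonuclease gene Rnase2a, R-SDS replicate 2 was lowest at -3.92. For Zc3h12a, the RNase that degrades cytokine mRNAs, R-SDS replicate 2 stood at -1.52 while the nearest array stood at 1.49. For the D-box activator gene Dbp, R-SDS replicate 4 was lowest at 0.35. The other arrays that stood apart were high. R-SDS replicate 1 was at 0.0071 for the histone chaperone gene Asf1a, R-SDS replicate 4 at 3.21 for the complex I gene Ndufb3, and R-SDS replicate 3 at 0.24 for the receptor gene Sigirr.

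The fitted interaction term of Oaz3, TLR-DKO NAc minus TLR-DKO mPFC, was 4.06, and it was the 1 gene past limma's adjusted threshold there. In naive NAc 0 of 3 arrays and in mPFC 1 of 4 naive and 0 of 3 R-SDS arrays measured Oaz3 well above background, so 4.06 is not a measured difference between regions.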

How the results depend on the processing

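Oaz3 and Npm2 kept their sign in every alternative run, but the count of 2 genes past the threshold did not hold. It was 1, and the gene was Npm2, with quantile normalization, median centring, normexp with quantile normalization, or eBayes with trend and robust settings. It was 0 within slide 3, within slide 4, with normexp at the 75th percentile, with only the 7 arrays, with only the 13 NAc arrays, and over genes well above background on all 7 arrays, a filter that removes both genes. Leaving out 1 array gave 0 to 6 genes, reaching 6 without naive replicate 2 and 0 where the array was naive replicate 1 or R-SDS replicate 3. The 964 genes at an unadjusted p under 0.05 became 2154 within slide 3, which holds 1 naive array of this comparison and takes its spread from the groups with more than 1 array there, 1482 with only the 7 arrays, 519 over genes well above background on all 7 arrays, and 710 to 1434 with 1 array left out. For the genotype interaction, leaving out 1 array gave 0 to 1 genes past the threshold. Its 747 unadjusted genes became 1964 within slide 3, 1450 within slide 4 and 647 to 1192 with 1 array left out. The region interaction had 0 genes with quantile normalization, median centring, either normexp setting, no filter, the filter on all 7 arrays or trend and robust settings, and 0 to 2 with 1 array left out. The count without overlap, 986, was 644 with the filter on all 7 arrays. With median centring, unadjusted calls split 409 higher and 669 lower, in place of 542 and 422. Apart from the filters, which test fewer or more genes, and the left-out arrays, the cause was not tested.

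Deviations of same-numbered arrays correlated little across genes (r of 0.18, -0.14 and 0.05). These values cannot settle whether the numbers pair the samples, since the labels do not tie arrays to experiments. With the replicate block 2 genes passed, and 895 genes had an unadjusted p under 0.05. With that block the median was 0.15 for cytokines, 0.068 for NF-kappaB genes, 0.037 for the integrated stress list and 0.38 for interferon genes.

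Signs turned for some genes that were not called. Within slide 3, Isg15 was -0.66, C5ar1 -0.68, Sigirr -0.33, Tnf -1.47 and H2-Eb1 0.36. Within slide 4, Mdm2 was -0.13, Ifi35 0.0088, P2rx1 0.079 and Oaz1 -0.10. With 1 array left out, Ifi35 ran from -2.23 to 0.20, Tlr4 from -0.14 to 0.79, P2rx1 from -1.17 to 0.14, Oaz2 from -0.071 to 0.46 and Oaz1 from -0.11 to 0.28, each turning sign without naive replicate 1. Npm3 ran from -0.67 to 0.27 and turned without naive replicate 3 or R-SDS replicate 1 or 4. With the replicate block, Oaz2 was -0.018, Fos 0.023 and Npm3 0.30. With normexp at the 75th percentile, Rpl27 was 0.022 and Npm1 -0.019, and with normexp and quantile normalization Rpl27 was 0.059 and Cx3cr1 0.0016. Prrg1 was -1.19 without the filter, where another of its probes stood for the gene. The purinergic list median was 0.069 within slide 3. The glucocorticoid list median was 0.052 within slide 3 and 0.067 without the filter.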
